A study of Mus musculus with 16 samples.

Results

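The genes described here are 9 members of the plasminogen activation and blood coagulation systems, PLAU, PLAUR, PLAT, SERPINE2, SERPINB2, F3, THBD, TFPI and TFPI2, taken by their symbols from the 18132 gene symbols of an expression array series. RNA came from primary fibroblasts of the inguinal mammary glands of female 129S6 mice aged 8 to 10 weeks, grown in DMEM with 10% serum. The cells were MEKK1+/+ or MEKK1-/-, that is, with or without the kinase encoded by Map3k1. They were left untreated or kept for 8 h in conditioned medium, that is, growth medium harvested from cultures of MDA-MB231, a human breast cancer cell line that grows as an invasive, hormone receptor negative culture. Each of the 4 groups had 4 arrays, 16 in all, and the labels name no other allele or agent. The study's methods give 3 mice for each genotype, so that the 4 arrays of a group cannot all be from different animals, and the p-values measure the spread between cultures.

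Urokinase (PLAU) and tissue plasminogen activator (PLAT) cut plasminogen into plasmin, which dissolves fibrin and opens the matrix, and PLAUR holds urokinase at the cell surface. SERPINB2 and SERPINE2 are serpins that trap urokinase, and SERPINE2 also traps thrombin. Tissue factor (F3) starts clotting when it meets factor VIIa, TFPI blocks that complex, thrombomodulin (THBD) turns thrombin towards the activation of protein C, and TFPI2 is a Kunitz inhibitor that acts on plasmin and other proteases. Fibroblasts of wounds and of tumor stroma are a known source of several of these proteins.

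Levels are given as log2 intensity after quantile normalization, and a level was read as background where it was not above the 99th percentile of the olfactory receptor genes on the same array (122 to 194 in deposited units). Median deposited intensities were 114 to 170, and arrays of the same group correlated at r = 0.979 to 0.996 across genes, which are not independent replicates. The MAP3K1 signal of arrays labelled MEKK1-/- was not lower but higher than that of MEKK1+/+ arrays, though no adjusted p of the main fit was under 0.05. Its means were 7.71 and 8.24 in untreated MEKK1+/+ and MEKK1-/- cells, without overlap (adjusted p = 0.465 by limma, 2-sided exact permutation p = 0.0286). With conditioned medium they were 7.74 and 8.07, with overlap (adjusted p = 0.605 by limma). The mean difference over both treatments was 0.43 (adjusted p = 0.112 by limma, exact permutation within treatments p = 0.00367). Without all replicate 2 arrays it was 0.47 (adjusted p = 0.0470 by limma), in a fit in which 7.16% of all genes passed. Where the probe lies relative to the deletion is not given in the sources used here, so this does not check the genotype, and the labels are used as given. Of 11 fibroblast markers measured, 10 were above background on all 16 arrays. Of 5 fat cell genes, LPL was above it on all 16 arrays, PPARG on 8, and ADIPOQ, FABP4 and PLIN on 0. The summed level of these 5 genes, used below, is therefore mostly LPL (mean level 12.84, against 7.33 for PPARG). It cannot be read as an amount of fat cells.

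A pair of arrays and a replicate number stood apart. In replicate 1 of the MEKK1-/- cells the summed level of 8 epithelial genes, keratins among them, was 13.46 untreated and 13.31 with conditioned medium, against 9.93 to 10.57 on the other MEKK1-/- arrays and 9.94 to 10.07 on the MEKK1+/+ arrays. Summed over 19 macrophage genes, levels ran from 13.54 to 15.45 on MEKK1+/+ arrays and from 12.56 to 14.86 on MEKK1-/- arrays. Replicate 2 gave the lowest MEKK1+/+ sums (13.85 and 13.54) and the highest MEKK1-/- sums (14.86 and 14.68). Of the 19 macrophage genes, 7 were above background on all 16 arrays (CSF1R, CD14, LYZ2, TYROBP, C1QB, C1QC and LAPTM5), 8 on some, and PTPRC, ITGAM, FCER1G and MSR1 on 0. Results that rest on these arrays are given with and without them below, and fewer cells of a type cannot be told apart from less RNA per cell.

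**Figure D1:**
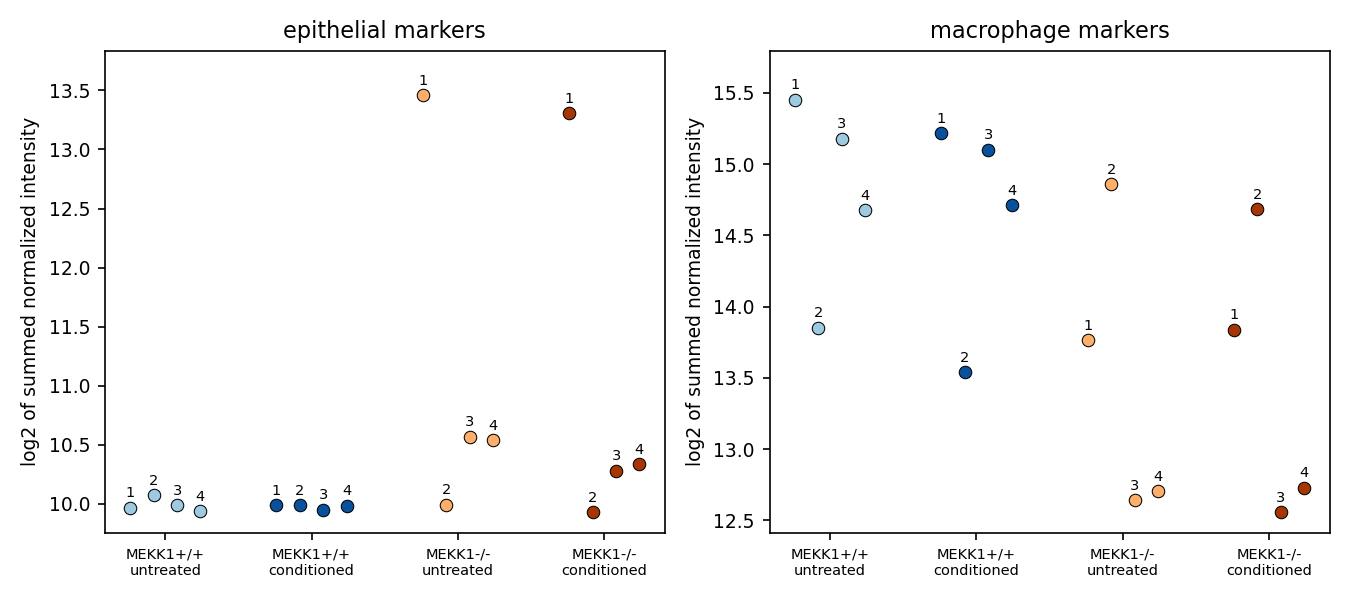
Summed levels of 8 epithelial and 19 macrophage genes (log2 of the summed intensity, vertical axis) on each of the 16 arrays by group, each point labelled with its replicate number. Replicate 1 of both MEKK1-/- groups lies at 13.46 and 13.31 in the epithelial panel, with every other array at or below 10.57, and replicate 2 is the lowest in both MEKK1+/+ groups and the highest in both MEKK1-/- groups in the macrophage panel.

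The largest change among the 9 genes was the rise of SERPINB2 with conditioned medium, 6.07-fold in the MEKK1+/+ and 5.34-fold in the MEKK1-/- genotype. PLAUR fell by 0.44 on the log2 scale when both genotypes were averaged. None of the 9 passed the threshold (limma, Benjamini-Hochberg adjusted p under 0.05 over all 18132 genes) between the genotypes, or for a difference between the genotypes in the response. PLAT and TFPI2 did not rise above background on any array.

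In counts, 1 of the 9 genes passed for the response to conditioned medium in MEKK1+/+ cells, beside 5.01% of all genes (limma). In MEKK1-/- cells it was also 1 of 9, beside 4.69%. For the mean response of both genotypes it was 2 of 9, beside 12.5%, and at an unadjusted p under 0.05 it was 5 of 9, beside 23.1% of all genes. The 5 were SERPINB2, PLAUR, F3, THBD and PLAT, the last of which was at background on every array. At such small numbers these shares do not set the 9 genes apart from the rest of the table. Between genotypes, 0 of 9 passed by limma in untreated cells, beside 0% of all genes, 0 of 9 with conditioned medium, beside 0.00552%, and 0 of 9 for the mean of both treatments, beside 0.011%. The corresponding counts at an unadjusted p under 0.05 were 2, 2 and 2 of the 9, beside 9.27%, 8.09% and 15.5% of all genes. They were F3 and PLAT in untreated cells and F3 and SERPINE2 in the other comparisons. For the interaction of genotype and treatment, 0 of 9 passed by limma, beside 0% of all genes, and 0 of 9 had an unadjusted p under 0.05, beside 2.61% of all genes. The median difference of the 9 genes between conditioned medium and untreated cells was 0.20 among MEKK1+/+ arrays and 0.025 among MEKK1-/- arrays, beside -0.0018 and -0.0042 over all genes. These medians are the values of PLAT and of TFPI2, both at background, so nothing is read from them.

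**Figure D2:**
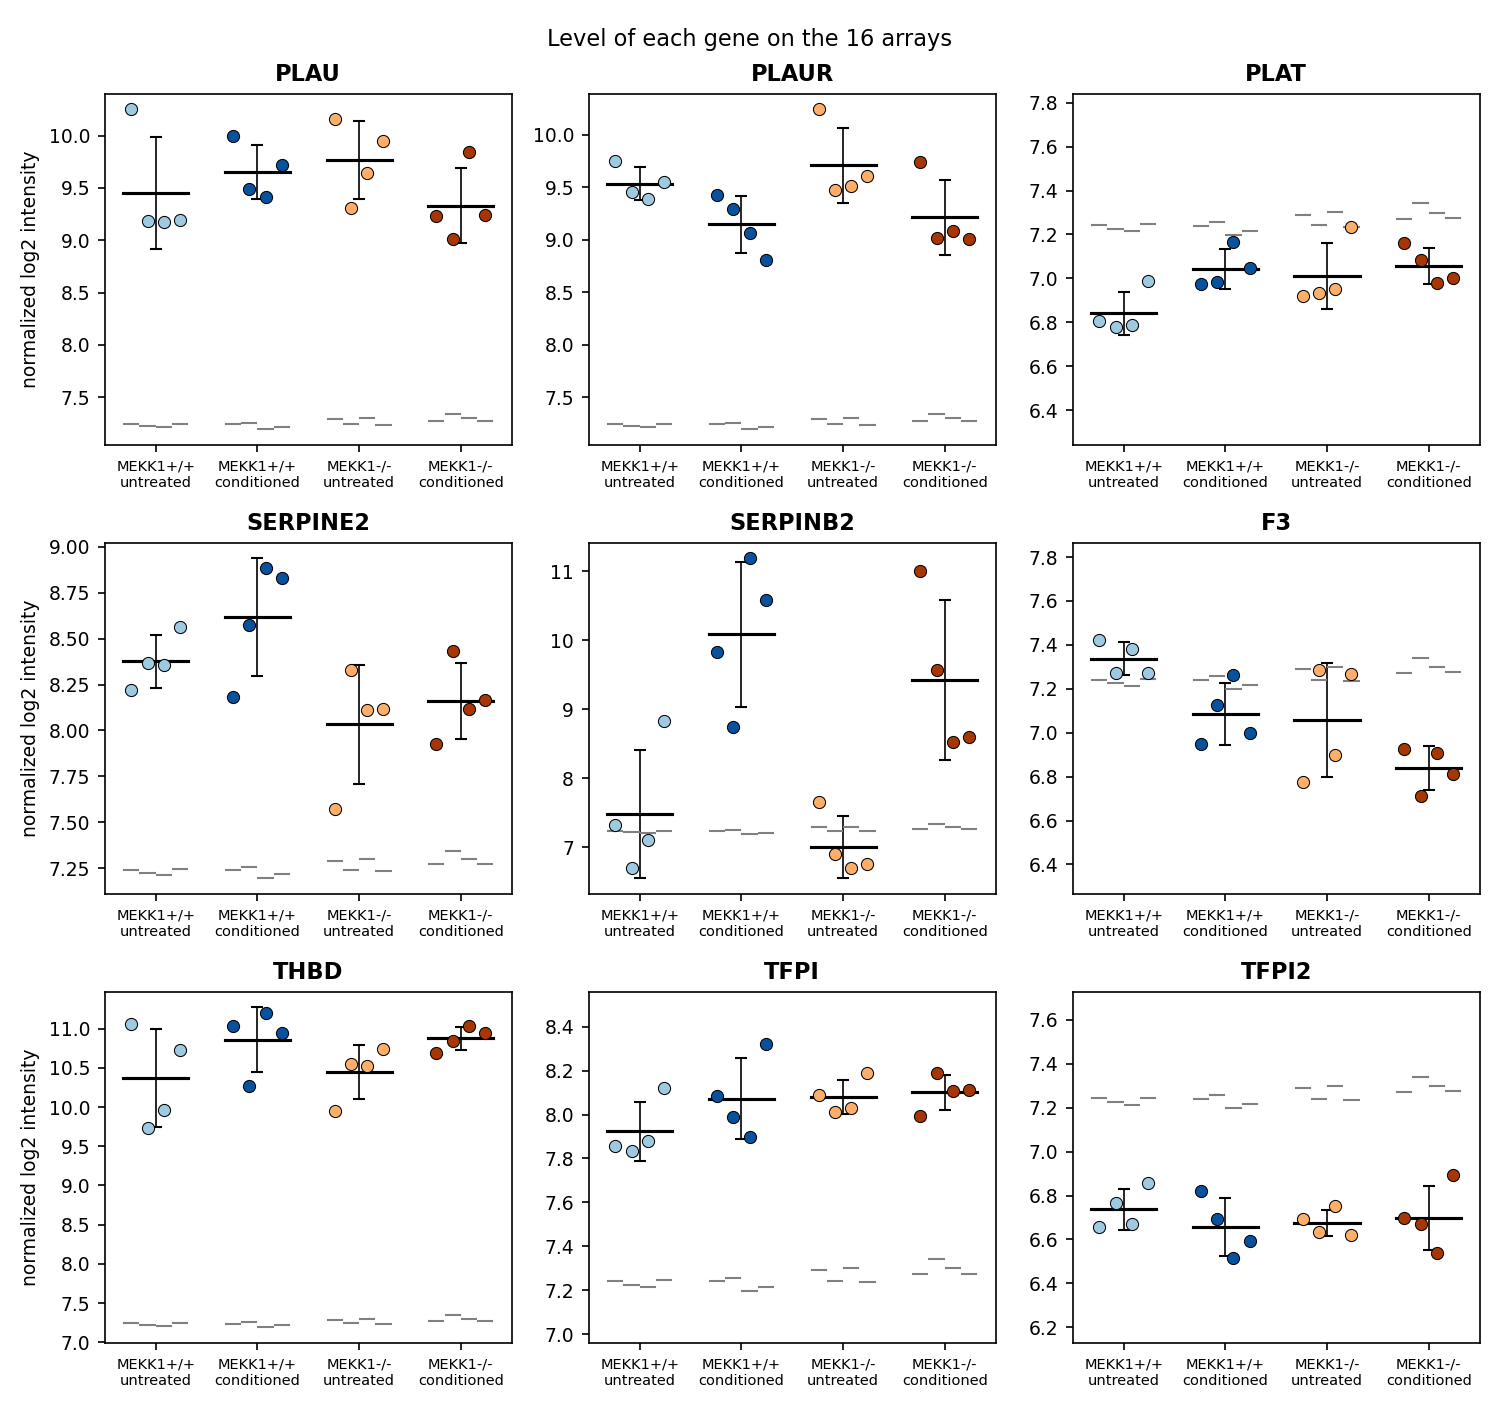
Level of each of the 9 genes (log2 intensity after quantile normalization, vertical axis, a panel a gene) in the 4 groups, with a point for each array in replicate order, a bar at the mean and the SD as error (n = 4), and grey ticks at the background level of each array. SERPINB2 stands at means of 7.49 and 7.01 untreated and of 10.09 and 9.43 with conditioned medium, whereas PLAT and TFPI2 lie at or below the ticks throughout.

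The sequence upstream of the transcription starts was searched for the AP-1 and NF-kB motifs, as a description. Upstream windows of 250 bases (RefSeq, GRCm38.p6, to the base before the transcription start) were found by symbol for 6 of the 9 genes, and not for PLAU, PLAT and THBD. The AP-1 motif TGANTCA, which reads the same on both strands, was found in the windows of SERPINB2, PLAUR, F3 and TFPI2, that is, in 4 of 6 genes and in 5 of their 10 windows, since some genes have several starts. The SERPINB2 windows overlap and hold the same site, which is counted in each. It was found in 7.82% of all 27025 genes with a window and in 6.75% of all 32851 windows. TFPI2, with the motif, was at background throughout, and 0 of the 6 genes held the NF-kB consensus, which was found in 8.23% of all genes. Windows of the 3 genes that held the AP-1 motif and were above background on some array are printed 5′ to 3′ with the match in capitals. They lie on the plus strand at chr1:107511173-107511422 for SERPINB2, chr7:24462233-24462482 for PLAUR and chr3:121723287-121723536 for F3. Those of SERPINB2 and PLAUR lie within the annotated spans of their genes, ahead of a later start. The match lies at -94 to -88 from the start in SERPINB2 and at -69 to -63 in PLAUR, and F3 has a pair of them, at -146 to -140 and -135 to -129. A match is a description of the letters and was not tested as a binding site. With conditioned medium SERPINB2 was higher, whereas PLAUR and F3 were lower, and F3 did not pass. A link between the motif and the response was not tested.
SERPINB2: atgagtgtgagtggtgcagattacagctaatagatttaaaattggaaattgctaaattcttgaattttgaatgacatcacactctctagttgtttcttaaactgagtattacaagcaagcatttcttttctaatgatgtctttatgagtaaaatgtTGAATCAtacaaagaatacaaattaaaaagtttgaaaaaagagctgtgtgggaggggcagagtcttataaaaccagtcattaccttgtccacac
PLAUR: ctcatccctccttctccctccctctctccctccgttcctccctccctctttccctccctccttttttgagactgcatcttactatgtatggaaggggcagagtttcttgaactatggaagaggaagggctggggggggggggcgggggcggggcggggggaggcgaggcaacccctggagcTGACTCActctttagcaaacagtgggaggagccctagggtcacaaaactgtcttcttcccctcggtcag
F3: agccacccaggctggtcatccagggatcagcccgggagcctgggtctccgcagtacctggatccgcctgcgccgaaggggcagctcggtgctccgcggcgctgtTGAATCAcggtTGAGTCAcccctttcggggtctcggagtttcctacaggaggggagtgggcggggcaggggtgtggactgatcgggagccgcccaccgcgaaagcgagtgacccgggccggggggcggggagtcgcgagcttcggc

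SERPINB2, an inhibitor of urokinase that is mostly kept inside cells, was the most strongly changed of the 9 genes. In untreated MEKK1+/+ cells its levels in replicates 1 to 4 were 7.32, 6.70, 7.10 and 8.83, and with conditioned medium they were 9.83, 8.75, 11.19 and 10.59. In untreated MEKK1-/- cells they were 7.67, 6.90, 6.70 and 6.76, and with conditioned medium 11.01, 9.57, 8.52 and 8.61. All 8 arrays with conditioned medium were above background, as were 2 of the 4 untreated MEKK1+/+ arrays and 1 of the 4 untreated MEKK1-/- arrays. The treated and untreated arrays did not overlap in MEKK1-/- cells, and in MEKK1+/+ cells they overlapped by replicate 4 untreated (8.83) lying above replicate 2 with conditioned medium (8.75).

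The rise was 2.60 ± 0.59 (SE) on the log2 scale in MEKK1+/+ cells (limma adjusted p = 0.0190, exact permutation p = 0.0571, 2-sided, 4 arrays against 4). In MEKK1-/- cells it was 2.42 ± 0.59 (limma adjusted p = 0.0299, exact permutation p = 0.0286, the smallest that 4 against 4 can give). Over both genotypes it was 2.51 ± 0.42, or 5.69-fold (limma adjusted p = 0.000968, exact permutation within genotypes p = 0.000816). Pairs of MEKK1-/- cultures of the same number rose by 3.34, 2.66, 1.82 and 1.84, so the rise was higher in replicates 1 and 2 than in replicates 3 and 4. The difference between the genotypes in the response was -0.18 ± 0.84 (limma adjusted p = 1.00), with a 95% interval of -1.97 to 1.61, which spans a difference of several fold either way. Between genotypes SERPINB2 differed by -0.48 untreated (limma adjusted p = 0.820) and -0.66 with conditioned medium (limma adjusted p = 0.785). Since some untreated arrays were at background, the fold is on a scale that holds the background and can understate the change.

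The calls for SERPINB2 in each genotype alone rested on few arrays. When arrays were left out in turn, the MEKK1+/+ rise was 2.22 to 3.05 and passed in 12 of 16 fits, and was lost without untreated replicate 2 or 3 or treated replicate 3 or 4. The MEKK1-/- rise was 1.89 to 2.72 and passed in 11 of 16, and was lost without untreated replicate 2, 3 or 4 or treated replicate 1 or 2. Without both MEKK1-/- arrays of replicate 1, where the epithelial genes were high, it was 2.13 (limma adjusted p = 0.0592), and without all replicate 2 arrays it was 2.35 (limma adjusted p = 0.0810). On the values as deposited it was 2.31 (limma adjusted p = 0.0837), and it did not pass with a common median or with trend and robust variances either. The mean over both genotypes was 2.25 to 2.73 and passed in all 16 fits.

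**Figure D3:**
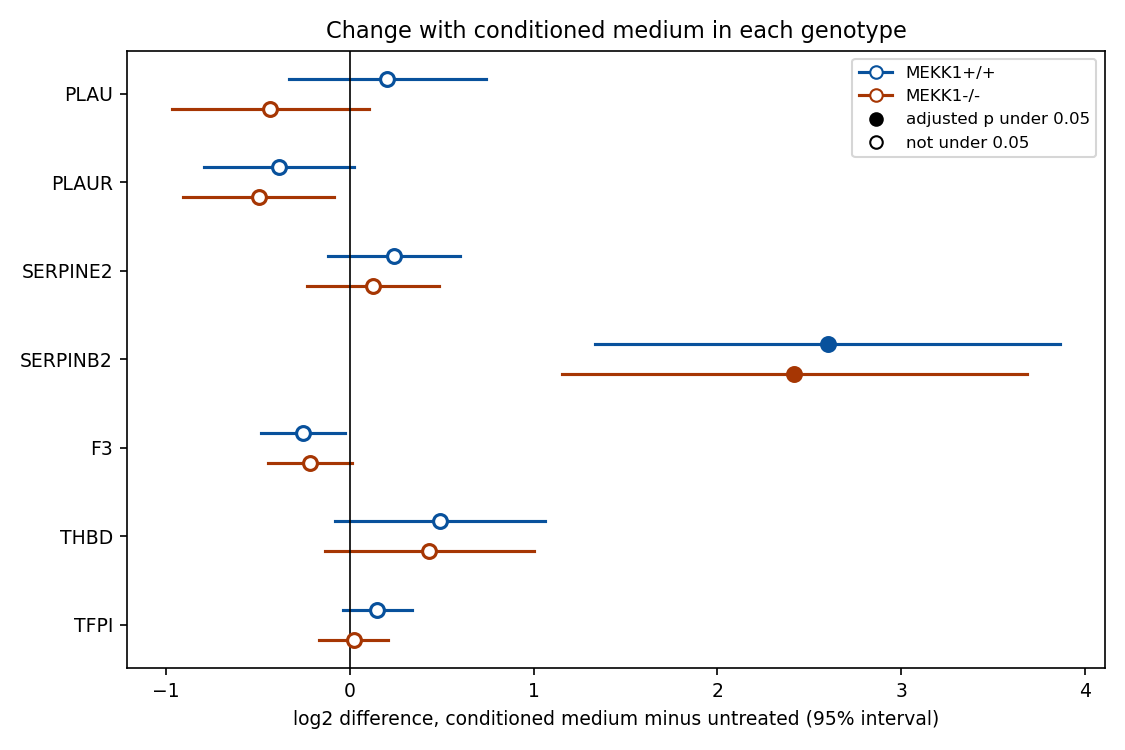
Difference between conditioned medium and untreated cells (log2, horizontal axis, with the 95% interval from limma) for the 7 genes that were above background on some array, in MEKK1+/+ cells and in MEKK1-/- cells. Filled symbols mark an adjusted p under 0.05, which SERPINB2 has in both genotypes (2.60 and 2.42) and no other gene has in either.

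PLAUR, the receptor that concentrates urokinase at the cell surface, was lower with conditioned medium. Its levels in replicates 1 to 4 were 9.75, 9.45, 9.39 and 9.55 in untreated MEKK1+/+ cells and 9.43, 9.29, 9.07 and 8.81 with conditioned medium. The MEKK1-/- cells had 10.24, 9.47, 9.51 and 9.61 untreated and 9.74, 9.02, 9.08 and 9.0 with conditioned medium. The receptor was above background on all 16 arrays. The groups overlapped in both genotypes, in MEKK1-/- cells only through replicate 1, which was the highest array both untreated and treated. The difference was -0.39 ± 0.19 (SE) in MEKK1+/+ cells (limma adjusted p = 0.334) and -0.50 ± 0.19 in MEKK1-/- cells (limma adjusted p = 0.187), so that neither genotype passed alone. Their mean, -0.44 ± 0.14 or 1.36-fold lower, passed (limma adjusted p = 0.0441, exact permutation within genotypes p = 0.0102).

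Within the MEKK1-/- cells, cultures of the same number differed by -0.50, -0.45, -0.43 and -0.60, which is nearly the same step in each. In the MEKK1+/+ cells each treated array was also below the untreated array of its number, but by uneven steps. PLAUR went from 9.45 to 9.29 in replicate 2 and from 9.55 to 8.81 in replicate 4. Over all genes, arrays of the same number deviated together from their group means in MEKK1-/- cells and in MEKK1+/+ replicates 2 and 4. A fit of the 8 MEKK1-/- arrays with the replicate number as a block was chosen after seeing the data. In it PLAUR passed (limma adjusted p = 0.00460), as did SERPINB2 (limma adjusted p = 0.00177) and THBD (limma adjusted p = 0.0344). These are 3 of the 9 genes, beside 8.43% of all genes in that fit, which has 3 residual degrees of freedom. The mean over genotypes was -0.44 without both MEKK1-/- arrays of replicate 1 (limma adjusted p = 0.00422) and -0.49 without all replicate 2 arrays (limma adjusted p = 0.100). With single arrays left out it was -0.53 to -0.35 and passed in 5 of 16 fits, those without treated replicate 1 or 2 of the MEKK1+/+ cells or without untreated replicate 2 or 3 or treated replicate 1 of the MEKK1-/- cells, with limma adjusted p from 0.00737 to 0.0935. Across the arrays, after subtraction of group means, PLAUR correlated at r = 0.88 with the summed endothelial genes, at r = 0.84 with the epithelial and at r = -0.72 with the fat cell genes (16 arrays). Without both MEKK1-/- arrays of replicate 1 these were 0.53, 0.090 and -0.50 over 14 arrays. Between genotypes PLAUR differed by 0.17 untreated (limma adjusted p = 0.795) and 0.064 with conditioned medium (limma adjusted p = 0.942).

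PLAU, which encodes urokinase itself, was above background on all arrays and varied widely among cultures of the same group. Its levels were 10.25, 9.18, 9.17 and 9.19 in untreated MEKK1+/+ cells and 9.99, 9.49, 9.41 and 9.72 with conditioned medium. The MEKK1-/- cells had 10.16, 9.31, 9.65 and 9.95 untreated and 9.23, 9.01, 9.84 and 9.24 with conditioned medium. The groups overlapped in every comparison, and untreated MEKK1+/+ replicate 1 lay apart from the other 3 arrays of its group. The difference with conditioned medium was 0.20 for MEKK1+/+ (limma adjusted p = 0.793) and -0.43 for MEKK1-/- cells (limma adjusted p = 0.450). The difference between these responses was -0.64 ± 0.36 (SE), with a 95% interval of -1.39 to 0.12 (limma adjusted p = 1.00). Differences between genotypes were 0.31 in untreated cells (limma adjusted p = 0.717) and -0.32 with conditioned medium (limma adjusted p = 0.745).

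PLAT, the other activator, was not above background on any array, with levels of 6.78 to 7.23, and its differences, which enter the counts above, are not read. A rank of the 2 activators cannot be read from these values, since intensities of different probes are not on a common scale.

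SERPINE2, a secreted inhibitor of thrombin and urokinase, was the gene with the largest mean genotype difference among those above background on all arrays. Its levels in replicates 1 to 4 were 8.22, 8.37, 8.35 and 8.57 in untreated MEKK1+/+ cells and 7.57, 8.33, 8.11 and 8.11 in untreated MEKK1-/- cells. With conditioned medium they were 8.18, 8.57, 8.88 and 8.83 in MEKK1+/+ cells and 7.93, 8.43, 8.12 and 8.16 in MEKK1-/- cells. The MEKK1-/- arrays were mostly below the MEKK1+/+ arrays, with overlap in both treatments through replicate 2 of the MEKK1-/- cells and replicate 1 of the MEKK1+/+ cells. The difference, MEKK1-/- minus MEKK1+/+, was -0.34 ± 0.17 (SE) in untreated cells (limma adjusted p = 0.546) and -0.46 with conditioned medium (limma adjusted p = 0.538), with an exact permutation p of 0.0571 in each. The mean of both was -0.40 ± 0.12 (limma adjusted p = 0.146, exact permutation within treatments p = 0.00694), so it did not pass after adjustment over all genes. Without both MEKK1-/- arrays of replicate 1 the difference was -0.19 untreated, -0.38 with conditioned medium and -0.29 in the mean (limma adjusted p = 0.326). Without all replicate 2 arrays the mean was -0.50 (limma adjusted p = 0.0482), in a fit in which 7.16% of all genes passed. It also passed with a common median, at -0.54 (limma adjusted p = 0.0235). The response of SERPINE2 to conditioned medium was 0.24 in MEKK1+/+ cells (limma adjusted p = 0.561) and 0.13 in MEKK1-/- cells (limma adjusted p = 0.823).

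Macrophage markers moved with the genotype as well. In untreated cells 16 of 19 were lower on the MEKK1-/- arrays, with a median difference of -0.42, and with conditioned medium 17 of 19 were, with a median of -0.55, though 0 of 19 passed by limma. Endothelial genes were higher on the MEKK1-/- arrays in 8 of 10 cases untreated and in 9 of 10 with conditioned medium (medians 0.26 and 0.16), and epithelial genes in 6 of 8 cases in each (medians 0.86 and 0.72), again with 0 passing by limma. Replicate 1 of the MEKK1-/- cells had the highest sums of both lists, and these medians were not computed without it. Its epithelial sums were 13.46 and 13.31, against 9.93 to 10.57 on the other MEKK1-/- arrays and 9.94 to 10.07 on MEKK1+/+ arrays. Its endothelial sums were 11.97 and 11.91, against 11.37 to 11.58 and 11.20 to 11.52. The keratin-high replicate 1 was the lowest MEKK1-/- array for SERPINE2 in both treatments, and after subtraction of group means SERPINE2 correlated at r = 0.81 with the summed fat cell genes, at r = -0.72 with the endothelial and at r = -0.67 with the epithelial genes over 16 arrays, and at 0.65, -0.49 and -0.45 over the 14 arrays without that replicate. The fat cell sum is mostly the level of LPL, and the part of macrophage, endothelial or fat cells in the SERPINE2 difference was not tested.

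F3, which encodes tissue factor, lay close to background, from 6.71 to 7.42, and was above it on 7 of 16 arrays. Those were all 4 untreated MEKK1+/+ arrays, replicate 3 of the MEKK1+/+ cells with conditioned medium, and replicates 2 and 4 of the untreated MEKK1-/- cells. Its levels in replicates 1 to 4 were 7.42, 7.27, 7.38 and 7.27 in untreated MEKK1+/+ cells and 6.95, 7.13, 7.26 and 7.0 with conditioned medium, without overlap. Those of MEKK1-/- cells were 6.78, 7.29, 6.90 and 7.27 untreated and 6.93, 6.71, 6.91 and 6.81 with conditioned medium, where 0 arrays were above background. The difference with conditioned medium was -0.25 ± 0.11 (SE) in MEKK1+/+ cells (limma adjusted p = 0.231, exact permutation p = 0.0286), -0.22 in MEKK1-/- cells (limma adjusted p = 0.342) and -0.24 in the mean (limma adjusted p = 0.0561, exact permutation p = 0.0139). None of these passed over all genes, and no fold is given because levels lay at or near background. The mean passed without both MEKK1-/- arrays of replicate 1, at -0.30 (limma adjusted p = 0.0137), and with 5 of 10 other alternatives, but not on the values as deposited or without all replicate 2 arrays. F3 correlated with the summed fat cell genes at r = 0.85 over 16 arrays, and with the summed fibroblast genes at r = 0.090. After subtraction of group means these were 0.70 and 0.77, and 0.61 and 0.73 over the 14 arrays without MEKK1-/- replicate 1. F3 was above background on only 7 of the 16 arrays that enter these correlations. The fat cell sums were 13.18 to 13.78 and 12.31 to 13.37 in untreated and treated MEKK1+/+ cells, and 11.95 to 13.75 and 12.13 to 12.79 in MEKK1-/- cells. They are mostly the level of LPL, and the part of either sum in the F3 levels was not tested.

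Between genotypes F3 differed by -0.28 in untreated cells (limma adjusted p = 0.499). With conditioned medium 1 of 4 MEKK1+/+ and 0 of 4 MEKK1-/- arrays were above background, so the difference there, and the mean of both treatments, cannot be read as a genotype difference, although the arrays did not overlap. Counted over the 9 genes, arrays of the groups did not overlap for 0 genes between untreated genotypes, beside 4.61% of all genes, and for 1 (F3) with conditioned medium, beside 4.17%. They did not overlap for 1 (F3) in the MEKK1+/+ response, beside 9.7%, and for 1 (SERPINB2) in the MEKK1-/- response, beside 10.4%. The members' shares rest on a single gene each.

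THBD, thrombomodulin, was above background on all 16 arrays. It is best known from endothelium, where it turns thrombin into an activator of protein C. Its levels were 11.06, 9.74, 9.96 and 10.73 in untreated MEKK1+/+ cells and 11.03, 10.27, 11.20 and 10.95 with conditioned medium. Those of MEKK1-/- cells were 9.95, 10.55, 10.52 and 10.74 untreated and 10.68, 10.85, 11.03 and 10.94 with conditioned medium. The groups overlapped in both genotypes, in MEKK1-/- cells only through untreated replicate 4 lying above treated replicate 1. The difference with conditioned medium was 0.49 ± 0.27 (SE) in MEKK1+/+ cells (limma adjusted p = 0.398), 0.43 in MEKK1-/- cells (limma adjusted p = 0.491) and 0.46 in the mean (limma adjusted p = 0.146, exact permutation p = 0.0457). The mean passed with array weights, at 0.54 (limma adjusted p = 0.0441), with the replicate block within genotype (limma adjusted p = 0.0257) and without untreated MEKK1+/+ replicate 1 (limma adjusted p = 0.0418). These were 2 of 12 alternatives and 1 of 16 fits with single arrays left out. It did not pass on the values as deposited, at 0.21 (limma adjusted p = 0.501). Without both MEKK1-/- arrays of replicate 1 it was 0.41 (limma adjusted p = 0.238), and without all replicate 2 arrays 0.48 (limma adjusted p = 0.144). All 4 MEKK1-/- cultures were higher with conditioned medium than the untreated culture of their number, by 0.74, 0.29, 0.51 and 0.19. The MEKK1+/+ cultures were uneven, since replicate 1 did not rise (11.06 and 11.03) and replicate 3 went from 9.96 to 11.20. Between genotypes the means differed by 0.071 untreated and 0.014 with conditioned medium.

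The endothelial list was mixed. ENG was above background on 16 arrays, ESAM on 15, TEK on 14, CLDN5 and EMCN on 13 each, PECAM1, CDH5 and ROBO4 on 2 each and the receptors KDR and TIE1 on 0. Its sum was 11.20 to 11.52 on MEKK1+/+ arrays and 11.37 to 11.97 on MEKK1-/- arrays, and its part in the THBD levels was not tested.

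TFPI, the inhibitor of the complex of tissue factor and factor VIIa, was above background on all arrays. Its lowest and highest levels were 7.83 and 8.12 in untreated MEKK1+/+ cells, 7.90 and 8.32 with conditioned medium, 8.01 and 8.19 in untreated MEKK1-/- cells and 8.00 and 8.19 with conditioned medium. The 4 groups overlapped with each other. The difference with conditioned medium was 0.15 in MEKK1+/+ cells (limma adjusted p = 0.444) and 0.021 in MEKK1-/- cells, and the genotypes differed by 0.16 untreated (limma adjusted p = 0.592) and 0.028 with conditioned medium. Its relative TFPI2 was below background on all 16 arrays, at 6.52 to 6.89.

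**Figure D4:**
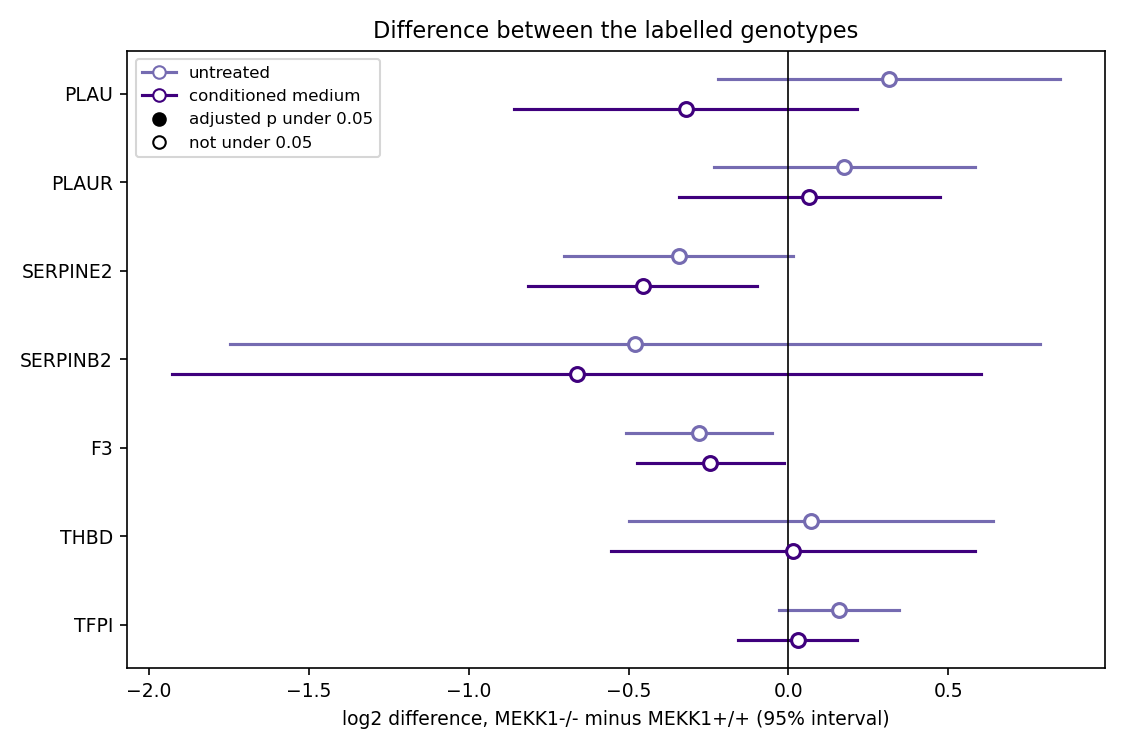
Difference between MEKK1-/- and MEKK1+/+ cells (log2, horizontal axis, with the 95% interval from limma) for the 7 genes that were above background on some array, untreated and with conditioned medium. No symbol is filled, since none had an adjusted p under 0.05, and SERPINE2 is on the lower side in both (-0.34 and -0.46).

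The other genes of the 2 systems were followed through a list of 45, with plasminogen and its receptors, the annexin A2 complex, clotting factors and their inhibitors, vitamin K enzymes and thrombin receptors. Of these, 43 were measured, 10 were above background on every array and 24 on none, among them PLG, VTN, F5 and F7. With conditioned medium, 2 of 43 passed by limma in MEKK1+/+ cells, 1 higher and 1 lower, beside 5.01% of all genes, and the same 2 passed in the mean of both genotypes, beside 12.5%. In MEKK1-/- cells 0 of 43 passed by limma, beside 4.69% of all genes. Between genotypes 0 of 43 passed untreated, with conditioned medium and in the mean, beside 0%, 0.00552% and 0.011% of all genes. For the interaction it was 0 of 43, beside 0%. At an unadjusted p under 0.05 there were 6 of 43 in the MEKK1+/+ response, beside 16.8% of all genes, 5 in the MEKK1-/- response, beside 16.2%, and 8 in the mean, beside 23.1%. Between genotypes there were 4 in untreated cells, beside 9.27%, 1 with conditioned medium, beside 8.09%, and 6 in the mean, beside 15.5%, and there was 1 for the interaction, beside 2.61%.

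The gene that was lower was F2R, a receptor that thrombin cleaves on fibroblasts. It ran from 14.35 to 14.79 in untreated MEKK1+/+ cells and from 13.65 to 14.11 with conditioned medium, and from 14.26 to 14.47 and from 13.24 to 14.20 in MEKK1-/- cells, without overlap in either genotype. It fell by 0.68 on the log2 scale in MEKK1+/+ cells (limma adjusted p = 0.0250), and in the mean by 0.62, or 1.54-fold (limma adjusted p = 0.00195). In MEKK1-/- cells the difference was -0.57 (limma adjusted p = 0.0637, exact permutation p = 0.0286). The mean passed for F2R with each array left out, but the MEKK1+/+ call was lost in 5 of 16 such fits, without untreated replicate 1, 2 or 3 or treated replicate 2 or 4, with limma adjusted p up to 0.0762 and differences of -0.76 to -0.60. On the values as deposited the mean passed, at -0.82 (limma adjusted p = 0.0225), but the MEKK1+/+ difference did not, at -0.98 (limma adjusted p = 0.0569). Pairs of MEKK1-/- cultures of the same number differed unevenly, by -0.28, -1.17, -0.12 and -0.69. Without all replicate 2 arrays the MEKK1-/- difference was -0.36 (limma adjusted p = 0.181).

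The gene that was higher was S100A10, which with ANXA2 forms a docking site for plasminogen and tissue plasminogen activator on the cell surface. It ran from 11.50 to 11.69 in untreated MEKK1+/+ cells and from 11.87 to 12.50 with conditioned medium, and from 11.76 to 12.13 and from 12.15 to 12.63 in MEKK1-/- cells, again without overlap. It rose by 0.63, or 1.55-fold, in MEKK1+/+ cells (limma adjusted p = 0.0111), and by 0.53 in the mean (limma adjusted p = 0.0013). On the values as deposited these were 0.20 (limma adjusted p = 0.452) and 0.28 (limma adjusted p = 0.281), and without all replicate 2 arrays the MEKK1+/+ value was 0.53 (limma adjusted p = 0.0885). The difference in MEKK1-/- cells was 0.42 (limma adjusted p = 0.0844).

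**Figure D5:**
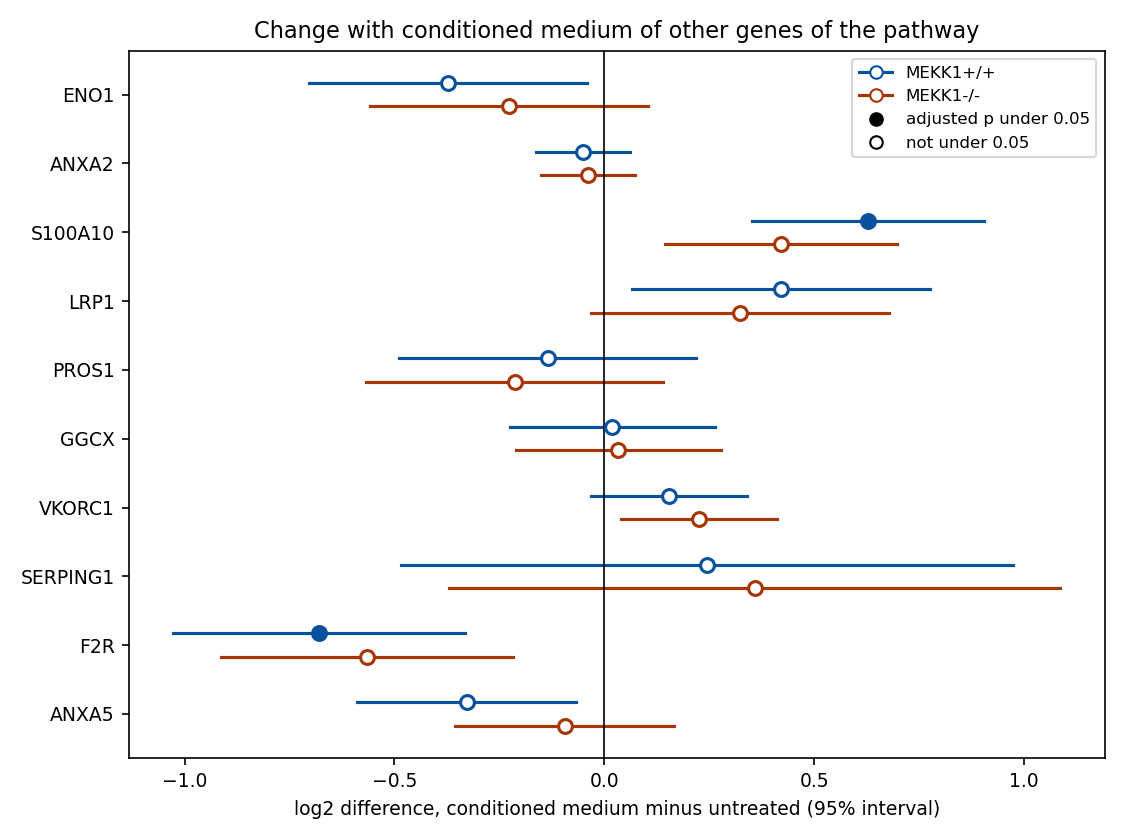
Difference between conditioned medium and untreated cells (log2, horizontal axis, with the 95% interval from limma) for the 10 genes of the wider plasminogen and coagulation list that were above background on every array. F2R lies lowest, at -0.68 for MEKK1+/+ and -0.57 for MEKK1-/-, and S100A10 highest, at 0.63 and 0.42, and filled symbols mark an adjusted p under 0.05.

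For the 5 genes above background on every array, the genes whose levels ran most alike over the 16 arrays were found among 6918 genes that were also above background throughout. PLAUR ran most like TNKS1BP1 (r = 0.935) and UTP6 (r = 0.901), and SERPINE2 most like RIN2 (r = 0.911) and DAPK1 (r = 0.889). THBD ran most like FBXO25 (r = 0.872) and ADAM9 (r = 0.860), PLAU like FAM115C (r = 0.815) and ZDHHC14 (r = 0.790), and TFPI like 1110036O03RIK (r = 0.781) and AKAP2 (r = 0.755). These correlations are the highest of many and share arrays and treatment, so they are given as a description.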

How the data were processed

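RNA of 16 mouse mammary fibroblast samples was measured on Illumina Mouse 8 arrays. The authors deposited linear intensity values per gene symbol, normalized by their core facility by a method not given in the sources used here, so its effect on levels is unknown. Values were taken to log2, quantile normalized between arrays and fitted with limma 3.58.1 in R 4.3.3 over all 16 arrays, with 12 residual degrees of freedom and Benjamini-Hochberg adjustment over all 18132 genes (threshold 0.05). The number of arrays limits the precision. Single values were also tested by 2-sided exact permutation. The fit was tested on simulated data before use. The 9 genes, the wider list and the markers were chosen with earlier results of these data known. Named genes were all 9 members, list genes that passed, and for each member above background throughout the 2 genes most correlated with it. The study's z-test was an alternative, beside the values as deposited, a common median, limma trend with robust variances, array weights, replicate blocks, a filter on dim genes, only the groups compared and arrays left out. Leaving out both MEKK1-/- arrays of replicate 1 or all replicate 2 arrays, and fitting MEKK1-/- arrays alone, were chosen after seeing the data. After subtraction of group means, untreated and treated arrays of the same number correlated in MEKK1-/- cells at r = 0.505, 0.403, 0.219 and 0.251 for replicates 1 to 4. In MEKK1+/+ cells r was -0.038, 0.485, 0.120 and 0.576. Within a genotype, arrays of different numbers were not compared in this way. These correlations alone do not settle whether the numbers pair arrays. The summed macrophage genes, however, followed the number in both genotypes. Untreated and treated, they were 15.45 and 15.22, 13.85 and 13.54, 15.18 and 15.10, and 14.68 and 14.71 in MEKK1+/+ replicates 1 to 4. In MEKK1-/- cells they were 13.76 and 13.84, 14.86 and 14.68, 12.64 and 12.56, and 12.71 and 12.73. Arrays of the same number thus appear related, whereas the main fit and the exact permutations treat them as independent. Promoter windows came from RefSeq (GRCm38.p6).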

Additional observations from a re-analysis of the deposited data

Results flagged for a closer look

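Among 36 groups of 4 arrays tested for the 9 genes, 5 had a highest array far from the other 3, and chance gives this in about 5% of such groups. PLAU in untreated MEKK1+/+ replicate 1 was at 10.25, with the next array at 9.19. PLAUR in MEKK1-/- replicate 1 with conditioned medium was at 9.74, with the next at 9.08, on an array with high epithelial genes. TFPI in untreated MEKK1+/+ replicate 4 was at 8.12, with the next at 7.88. PLAT was at 6.99 in untreated MEKK1+/+ replicate 4 and at 7.23 in untreated MEKK1-/- replicate 4, with the next arrays at 6.81 and 6.95, all not above background.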

How the results depend on the processing

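Quantile normalization set the scale, since on the values as deposited the median of all genes differed by -0.28 for the MEKK1+/+ response and by 0.28 between genotypes with conditioned medium. Background limits what can be read for F3, PLAT and TFPI2, and the differences of PLAT and TFPI2 enter the counts of the 9 genes without being read on their own. A fit of only the groups compared does not exist for the interaction and the means, nor a block within genotype for genotype differences. The cause of the changes below was not tested.

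Of the 9 genes, the number that passed in the mean response (2 in the report) was 3 with a common median, on z-scores, by the z-test, with trend and robust variances, with the block within genotype and without both MEKK1-/- arrays of replicate 1, 4 with array weights, 1 without all replicate 2 arrays, and 1 to 3 with single arrays left out. In the MEKK1-/- response (1 in the report) it was 0 on the values as deposited, with a common median, with trend and robust variances, without both MEKK1-/- arrays of replicate 1 and without all replicate 2 arrays. With the replicate block and with the block within genotype it was 2, with the replicate block in MEKK1-/- arrays alone 3, and 0 to 1 with single arrays left out. In the MEKK1+/+ response (1 in the report) it was 3 by the z-test, 2 with the block within genotype and 0 to 1 with single arrays left out. Between genotypes, in the mean of treatments (0 in the report), it was 2 with a common median, 2 by the z-test and 1 without all replicate 2 arrays. The replicate block moved no other count of the 9 genes by more than 1.5 times. Over all genes, 1299 passed between genotypes in the mean without all replicate 2 arrays, against 2 with them. In the mean response 2262 of all genes passed, and 2957 with the block within genotype. There were 2321 without both MEKK1-/- arrays of replicate 1 and 1784 without all replicate 2 arrays. In the same order the MEKK1-/- response had 851, 1438, 768 and 654, and 1528 with MEKK1-/- arrays alone. The MEKK1+/+ response had 909, and 1481 with the block within genotype. No change of a count is read as particular to the 9 genes.

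None of the differences that turned sign had passed. Without all replicate 2 arrays THBD was -0.18 untreated, -0.17 with conditioned medium and -0.18 in the mean between genotypes and 0.0031 for the interaction, PLAU 0.053 between genotypes in the mean, and TFPI -0.031 in the MEKK1-/- response and -0.029 between genotypes with conditioned medium. With array weights PLAU was 0.020 between genotypes in the mean, and with conditioned medium PLAUR was -0.0065 and THBD -0.018. Without both MEKK1-/- arrays of replicate 1, F3 was -0.087 for the interaction and PLAUR -0.0039, -0.11 and -0.058 between genotypes untreated, with conditioned medium and in the mean. With a common median, in the same order, THBD was -0.20, -0.23 and -0.21 and PLAUR -0.091, -0.11 and -0.10, and TFPI was -0.070 with conditioned medium and -0.029 in the mean. On z-scores and by the z-test THBD was -0.0068 between genotypes with conditioned medium and F2R -0.071 for the interaction. On the values as deposited THBD was -0.18 untreated and -0.050 in the mean between genotypes, PLAUR -0.071 untreated and F3 0.069 with conditioned medium. The interactions there were 0.26 for THBD, 0.22 for SERPINE2, 0.21 for TFPI, 0.16 for S100A10 and 0.27 for PLAUR. The responses there were -0.12 in MEKK1+/+ cells and -0.011 in the mean for SERPINE2, -0.18 and -0.079 for TFPI, and -0.21 in MEKK1+/+ cells for PLAU.

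With single arrays left out, the interaction ran from -0.020 to 0.29 for F2R, -0.058 to 0.11 for F3, -0.29 to 0.068 for PLAUR, -0.71 to 0.18 for SERPINB2 and -0.29 to 0.16 for THBD. The response ran from -0.20 to 0.019 in the mean for PLAU, and in MEKK1-/- cells from -0.025 to 0.23 for SERPINE2 and -0.0087 to 0.057 for TFPI. Between genotypes it ran from -0.0034 to 0.25 for PLAUR and -0.14 to 0.30 for THBD untreated, with conditioned medium from -0.11 to 0.16 for PLAUR, -0.031 to 0.11 for TFPI and -0.18 to 0.13 for THBD, and in the mean from -0.090 to 0.13 for PLAU and -0.063 to 0.16 for THBD.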
